A study of Mus musculus with 22 samples.

Results

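The proteasome genes were read on arrays of mouse aortic endothelial cells as every gene whose platform symbol starts with Psma, Psmb, Psmc, Psmd, Psme, Psmf or Psmg followed by a number. That rule found 46 of the 11807 genes named on the array. Where several probe sets read a gene, the one brightest on average across the 22 arrays stands for it. Of the 46 genes, 8 code for alpha-ring subunits of the 20S core, 7 for constitutive beta subunits, 3 for the inducible beta subunits Psmb8, Psmb9 and Psmb10, 5 for ATPases and 11 for non-ATPase subunits of the 19S cap, and 2 for the PA28 activator subunits Psme1 and Psme2. The others are the activator gene Psme3, the inhibitor gene Psmf1 and 6 genes of assembly chaperones. Psmc3ip and Psme3ip1 met the rule by their symbols alone and are not proteasome subunits.

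All cells came from the C57BL/6 strain, kept on chow, and were scraped from the opened aorta. Fresh cells were taken from ApoE -/- mice (n = 4 arrays) and from wild-type mice (n = 6 arrays), both at 4 weeks of age. The labels call the former hyperlipidemic before lesions and the latter normal-lipidemic. The other aortas were wild type, of an age not given, and were held ex vivo for 4 h in DMEM with 1% FBS (n = 3), in the same medium with 4 ng/mL of lipopolysaccharide (LPS, n = 3), with 50 µg/mL of oxidised low-density lipoprotein (oxLDL, n = 3), or with 50 µg/mL of the oxidised phospholipid oxPAPC (n = 3). The ApoE deletion is in the germ line of the donor animals, and no incubated group carried it. How many animals an array stands for is not labelled, so p-values here reflect array-to-array spread alone, which may in part be technical, and the small number of arrays limits the precision.

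The proteasome is the protease that degrades ubiquitin-tagged proteins. Its 20S core is a barrel of alpha and beta rings, and 3 of the beta subunits, Psmb5, Psmb6 and Psmb7, carry the proteolytic sites. The 19S cap, with its ATPase ring, recognises, unfolds and feeds in the substrate. Under interferon gamma many cells make Psmb8, Psmb9 and Psmb10, which replace Psmb5, Psmb6 and Psmb7 in newly built cores (the immunoproteasome), and Psme1 and Psme2, whose proteins form the PA28 cap; these forms are known for making peptides for class I antigen presentation. When proteasome activity falls short, the factor NRF1, encoded by Nfe2l1, is known to raise the constitutive subunit genes together through antioxidant response elements.

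RefSeq promoter windows of build GRCm38.p6, each from 250 bases before to 50 bases after the transcription start, were matched by gene identifier for 38 of the 46 genes. Those of 4 genes on which the results turn are shown: Psme1 and Psme2, both lower with oxPAPC, Psmb9, higher with LPS than with oxPAPC, and Psmd12, higher after incubation. The capitals in Psme1 mark the interferon-stimulated response element (GAAA, any 2 bases, GAAA) on the reverse strand, those in Psme2 an NF-kB-like run (GGG, any 5 bases, CC) on either strand, those in Psmb9 the NF-Y box CCAAT on the reverse strand, and those in Psmd12 the antioxidant response element letters TGACNNNGC on the reverse strand.
Psme1 (chr14:55578244-55578543, plus strand): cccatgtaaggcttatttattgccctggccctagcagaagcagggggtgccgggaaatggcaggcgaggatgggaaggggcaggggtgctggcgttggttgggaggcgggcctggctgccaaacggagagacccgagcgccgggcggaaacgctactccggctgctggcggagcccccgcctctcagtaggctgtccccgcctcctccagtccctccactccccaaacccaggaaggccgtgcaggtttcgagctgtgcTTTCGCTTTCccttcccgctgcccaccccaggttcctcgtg
Psme2 (chr14:55591052-55591351, minus strand): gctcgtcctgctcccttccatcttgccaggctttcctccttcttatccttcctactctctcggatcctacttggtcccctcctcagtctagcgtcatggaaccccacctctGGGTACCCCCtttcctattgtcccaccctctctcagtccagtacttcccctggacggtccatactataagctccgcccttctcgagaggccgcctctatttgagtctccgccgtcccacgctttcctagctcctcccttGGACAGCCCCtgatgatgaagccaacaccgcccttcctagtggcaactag
Psmb9 (chr17:34187281-34187580, minus strand): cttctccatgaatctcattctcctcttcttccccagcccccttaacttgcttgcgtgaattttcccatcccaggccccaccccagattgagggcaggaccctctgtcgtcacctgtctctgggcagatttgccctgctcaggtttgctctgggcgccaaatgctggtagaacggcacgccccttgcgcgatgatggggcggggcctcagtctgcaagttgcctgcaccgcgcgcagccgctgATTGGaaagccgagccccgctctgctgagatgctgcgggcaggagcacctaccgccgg
Psmd12 (chr11:107479278-107479577, plus strand): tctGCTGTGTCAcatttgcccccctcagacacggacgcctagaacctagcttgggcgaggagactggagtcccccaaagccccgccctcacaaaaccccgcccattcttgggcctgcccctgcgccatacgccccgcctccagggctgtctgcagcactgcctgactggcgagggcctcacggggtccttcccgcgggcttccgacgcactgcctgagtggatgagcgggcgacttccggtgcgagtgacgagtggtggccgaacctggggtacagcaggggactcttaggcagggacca
A match is a description of letters and not a binding site. Searched on both strands, the interferon-stimulated response element was in the windows of 5 of the 38 proteasome genes (Psmb3, Psmd4, Psmd9, Psme1 and Psmg4) and of 3.99% of 27025 genes with a window. The GAS element TTCNNNGAA was in the windows of 3 of the 38 (Psmb8, Psmd2 and Psmg1) and of 9.55% of all. TGACNNNGC was in those of 4 (Psmb5, Psmb6, Psmd9 and Psmd12) and of 13.99% of all. CCAAT was in 14 and in 41.1% of all, and the NF-kB-like run, which can overlap itself on the other strand, was in 22 and in 53.5% of all. The window of Psmb9 overlapped that of Tap1, which is read from the other strand and codes for a subunit of the class I peptide transporter, by 275 bases, with the starts 226 bases apart. The printed windows of Psme1 and Psme2 did not overlap, and their starts lay 12607 bases apart on the same chromosome.

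Correlations between arrays over all genes were 0.977 to 0.991 within groups and 0.911 to 0.938 between fresh and incubated arrays. Apoe had log2 signals of 3.04 to 3.23 in ApoE -/- arrays and of 3.78 to 4.35 in fresh wild-type arrays. In the oxPAPC arrays, described as wild type, it read 3.18, 3.17 and 3.06, within the ApoE -/- range. LPS replicate 10, at 3.08, was also within it, and LPS replicates 3 and 4 read 3.55 and 3.28. Medium arrays read 3.63 to 3.85 and oxLDL arrays 3.57 to 3.89. The Apoe signal therefore did not separate the genotypes across all groups. In no array did it reach the 40th percentile, which was 4.58 to 4.71. Of 13 endothelial markers, 12 were above that percentile in every fresh wild-type array, and of 10 lymphocyte markers 7 were above it in none. Markers of other cells were also above it in every such array: 9 of 10 for smooth muscle, 4 of 5 for fibroblasts, 4 of 6 for erythroid cells and platelets, and 5 of 12 for macrophages. The mean level was 8.84 for the smooth muscle list and 8.60 for the endothelial list. Among the proteasome genes 3 arrays stood apart. In fresh wild-type replicate 14, the 5 inducible genes lay on average 0.82 above the group's mean on the log2 scale, and the other 5 arrays lay between -0.49 and 0.11. In oxPAPC replicate 13, the 30 constitutive core and cap genes measured above the level filter lay 0.52 above the fresh wild-type mean, against 0.01 and 0.06 in the other oxPAPC arrays. In LPS replicate 10, the inducible genes lay at -0.88 from that mean, against -0.25 and -0.41 in the other LPS arrays. Where the number of calls changed without one of these arrays, it is given with the results.

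After 4 h in medium many constitutive cap and core genes and Psme3 were higher than in fresh wild-type cells, and of the inducible genes Psmb10 was lower. In all, 18 of the 44 genes tested were higher and 3 were lower. The median difference of the 44 was 0.20 on the log2 scale, against -0.13 for all genes tested. Called here and throughout means an adjusted p under 0.05 in limma, by the Benjamini-Hochberg method across every gene in the fit. Of all genes, 58.7% were called in this comparison, 24.3% higher and 34.4% lower. Leaving out medium replicate 9 or medium replicate 10 gave 13 calls in place of 21, and leaving out fresh wild-type replicate 14 gave 23.

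The 5 inducible genes all had negative differences, and Psmb10 passed the test. Psmb10, the inducible counterpart of Psmb7, had log2 signals of 6.16, 5.99 and 6.02 in medium, against a lowest value of 6.38, a median of 6.78 and a highest value of 7.37 in fresh wild-type cells. All 3 medium arrays were below all 6 fresh ones. Its difference was -0.77 ± 0.197 (SE, adjusted p = 0.00622 in limma), 1.71-fold lower, and it was called in all 14 alternatives, with -0.67 when fresh wild-type replicate 14 was left out. In every other incubated array Psmb10 was also below the lowest fresh wild-type value, at 5.73 to 6.23. Fewer cells of a type and less RNA per cell cannot be told apart in such samples.

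Psmb8, the inducible counterpart of Psmb5, had log2 signals of 7.34, 7.23 and 6.89 in medium, against 7.20 to 8.63 with a median of 7.53 in fresh wild-type cells. The groups overlapped, and the difference of -0.50 did not pass the test (95% confidence interval -1.10 to 0.10, adjusted p = 0.133 in limma). Psmb9, the inducible counterpart of Psmb6, had 6.01, 6.02 and 5.83 in medium against 5.95 to 8.37 with a median of 6.44, and its difference of -0.77 did not pass either (interval -1.71 to 0.17, adjusted p = 0.142). For both genes the highest fresh value came from replicate 14. Without that array the differences were -0.31 for Psmb8 and -0.44 for Psmb9, with limma's adjusted p at 0.115 and 0.0681. Psme1 and Psme2, the alpha and beta subunits of PA28, had differences of -0.45 (adjusted p = 0.0556) and -0.36 (adjusted p = 0.134) in limma, and Psme1 was called lower in 5 of 14 alternatives.

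Psmb9 is read by 3 probe sets, and they did not move alike. The probe set used above had the highest mean. The second was above the 40th percentile in 17 of 22 arrays. In fresh wild-type cells it read 6.56 at the lowest, with a highest value of 8.59, and in medium it read 5.51, 5.46 and 5.78. The mean difference was -1.94, with no overlap, where the first probe set gave -0.77. On that probe set oxLDL arrays read 4.71, 4.24 and 4.28 and oxPAPC arrays 4.29, 4.38 and 4.38, below all 3 medium arrays, while LPS arrays, at 6.28, 5.62 and 5.02, lay on both sides of them. The remaining probe set was above the percentile in no array. With the mean of all probe sets in place of the highest, Psmb9 was called lower in medium than in fresh wild-type cells (-0.93, adjusted p = 0.00881 in limma).

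**Figure D1:**
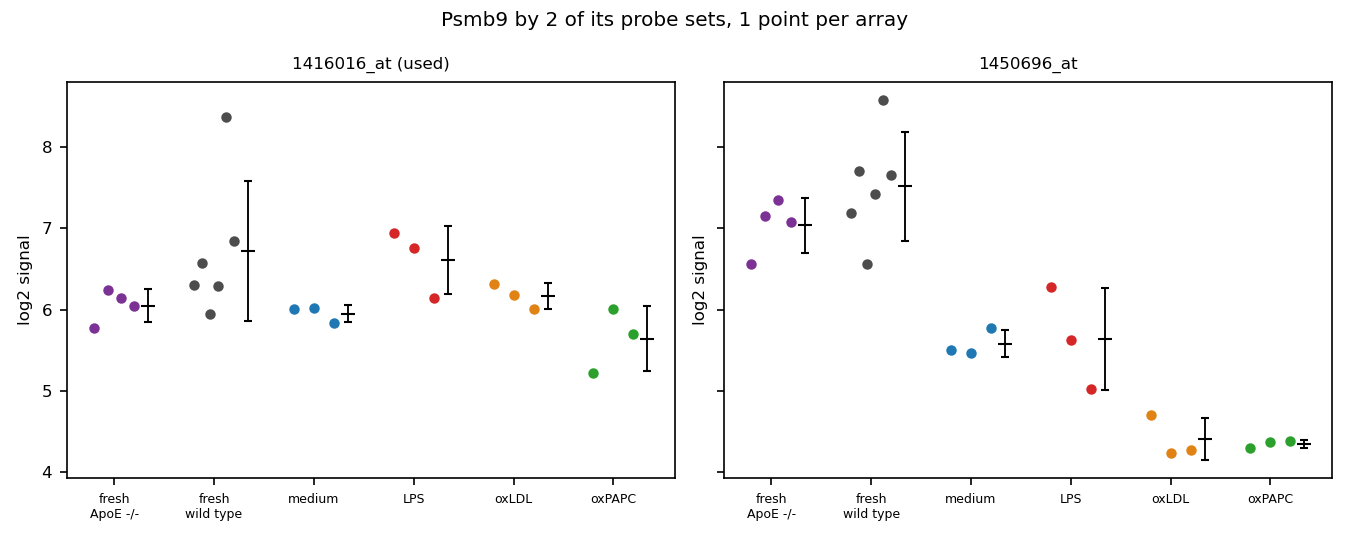
Log2 signal of Psmb9 by the probe set used here (left) and by a second probe set (right) in the 6 groups, 1 point per array, with the mean and SD beside the points. On the right the 3 medium arrays read 5.46 to 5.78, below all fresh wild-type arrays, and on the left they overlap them.

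Of the 30 constitutive core and cap genes tested, 17 were higher in medium and 1 was lower, with a median difference of 0.35. The cap took most of the calls: 3 of 5 ATPases and 8 of 11 non-ATPase subunits were higher and none lower, against 3 of 7 alpha subunits and 3 of 7 constitutive beta subunits. Psmd12, a subunit of the cap's lid, had log2 signals of 9.54, 9.37 and 9.49 in medium, against 8.003 to 8.482 with a median of 8.34 in fresh wild-type cells. The groups lay well apart, and the rise was 2.25-fold (log2 difference 1.17 ± 0.126 SE, adjusted p = 2.43e-05 in limma). Psmd11, a lid subunit that helps to join core and cap, read 8.57, 8.93 and 8.28 against 6.91 to 7.73 with a median of 7.46, a 2.28-fold rise (1.19 ± 0.204 SE, adjusted p = 0.000557 in limma).

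Psmd7, the partner of the deubiquitinase subunit in the lid, rose by 0.87 (adjusted p = 0.00015 in limma), from a range of 6.33 to 6.78 to values of 7.38, 7.46 and 7.48. Its other probe sets differed by 0.06 and 0.34. Psmd8 rose by 0.73 and the ATPase Psmc5 by 0.65, with adjusted p of 0.00419 and 0.00178 in limma. Psmc4 rose by 0.60, Psmc2, Psmd1 and Psmd2 by 0.57, 0.57 and 0.47, and Psmd6 and the deubiquitinase Psmd14 by 0.39 and 0.37. The values in medium were above all fresh wild-type values for each of these genes.

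In the core, Psma5 and Psmb4 rose by 0.44 each, Psma2 by 0.34 and Psma3 by 0.30. Psmb7, the constitutive counterpart of Psmb10, read 9.71, 9.46 and 9.52 in medium and 9.08 to 9.37 in fresh wild-type cells, and rose by 0.36 (adjusted p = 0.0178 in limma). Psmb6, the counterpart of Psmb9, read 7.46, 7.46 and 7.44 against 7.04 to 7.30 and rose by 0.26 (adjusted p = 0.0488), a call that was lost when 7 of the 9 arrays were left out one at a time. Psmb5, the counterpart of Psmb8, did not pass the test (-0.12, interval -0.43 to 0.19, adjusted p = 0.471 in limma). Psmb1, a beta subunit without a proteolytic site, was lower (-0.30, adjusted p = 0.031 in limma), a call lost in 6 of 14 alternatives, among them median centring (adjusted p = 0.110) and leaving out any 1 medium array.

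Psme3, whose product PA28 gamma caps nuclear 20S cores and is not induced by interferon, rose most among the called genes. Its log2 signals were 9.50, 9.46 and 9.37 in medium, and in fresh wild-type cells 7.99 at the lowest, 8.23 at the median and 8.37 at the highest. The rise was 2.37-fold (1.25 ± 0.119 SE, adjusted p = 1.14e-05 in limma), and its second probe set differed by 1.10. Of the 6 chaperone genes, which help the 20S core and the cap to assemble, none was higher and Psmg4 was lower (-0.66, adjusted p = 0.0189), with 4.04 to 4.42 in medium, below the 40th percentile of those arrays. The inhibitor gene Psmf1 had a difference of -0.20 (adjusted p = 0.555).

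**Figure D2:**
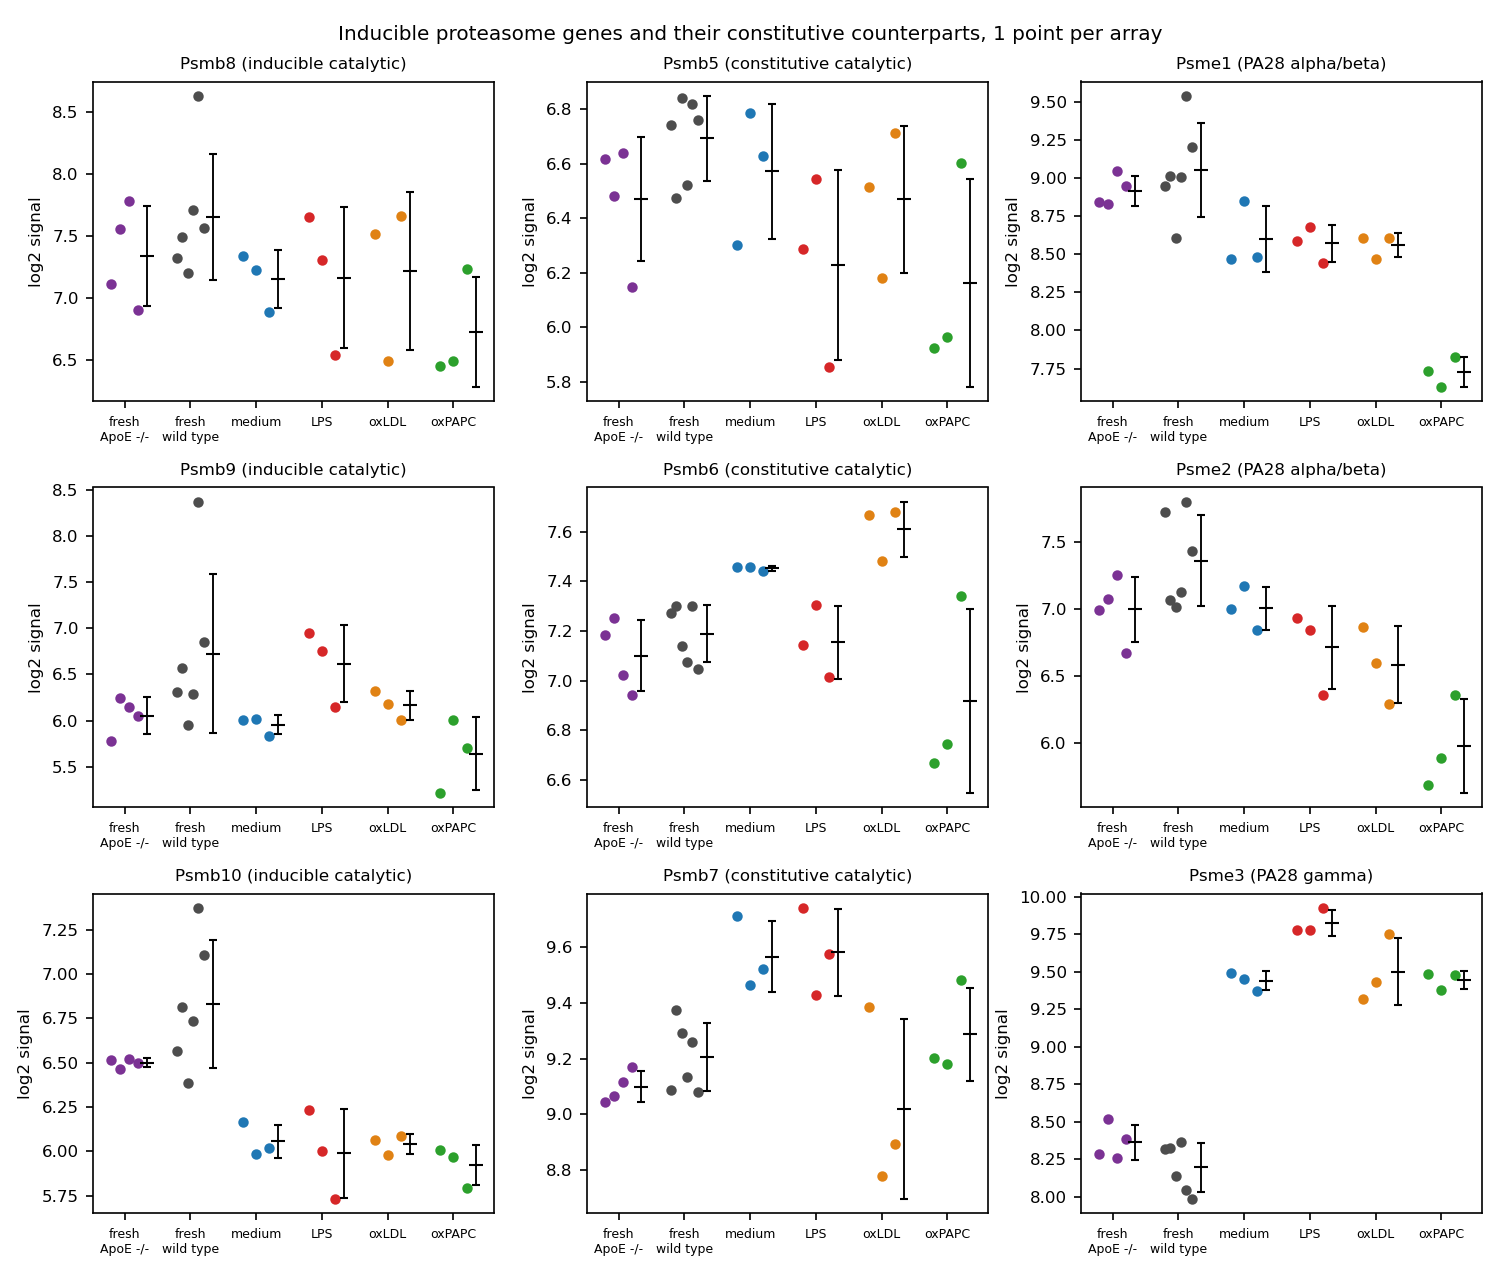
Log2 signal of the inducible catalytic genes (left column), their constitutive counterparts (middle) and the PA28 genes (right) in the 6 groups, 1 point per array, with the mean and SD beside the points. Psmb10 lies lower in all incubated groups than in all fresh wild-type arrays, Psme3 higher, and Psme1 is lowest with oxPAPC, at 7.63 to 7.83.

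Markers of other cells moved in the same comparison. Of the 10 macrophage markers tested, 9 were higher in medium and none lower, with a median difference of 1.33, and the mean level of the 12 on the array was 4.87 to 5.58 in fresh wild-type arrays and 6.47 to 6.69 in medium. Of the 10 smooth muscle markers, 8 were lower and none higher (median -1.07), with a mean level of 8.49 to 9.46 in fresh wild-type arrays and 7.35 to 8.35 in medium. The 12 endothelial markers tested had 4 higher and 2 lower, with a median of 0.06 and overlapping mean levels. Of the 5 fibroblast markers 2 were higher and 3 lower (median -0.71). Of 5 erythroid and platelet markers tested, 3 were lower and none higher (median -0.46). Of the 10 lymphocyte markers 1 was tested and not called. The shares over all genes were 24.3% higher and 34.4% lower. The part of these cells in the proteasome results was not tested.

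In fresh cells the ApoE -/- genotype changed no proteasome gene past the threshold. None of 44 was called by limma, where 0.427% of all genes tested were called. Of the 44, 9 had an unadjusted p under 0.05 in limma, as did 1328 of all 7264 genes tested. The median difference was -0.09, against -0.02 for all genes, and 32 of the 44 were negative. The smallest p belonged to Psma1, a subunit of the alpha ring: its log2 signals were 7.71, 7.82, 7.98 and 8.28 in ApoE -/- cells, all below the wild-type range of 8.37 to 8.71, with a difference of -0.52 (interval -0.79 to -0.25, adjusted p = 0.0828 in limma). The 5 inducible genes were all negative. Psmb9 read 5.77, 6.24, 6.14 and 6.05 against 5.95 to 8.37, a difference of -0.67 (interval -1.50 to 0.15, adjusted p = 0.368), which became -0.34 without fresh wild-type replicate 14. Psmb8 had -0.31, Psmb10 -0.33, Psme1 -0.14 and Psme2 -0.36, with groups that overlapped in each case. Without that array these differences were -0.12, -0.22, -0.04 and -0.28. The counterparts Psmb5, Psmb6, Psmb7 and Psme3 had -0.22, -0.09, -0.11 and 0.17. Of 5 erythroid and platelet markers tested, 1 was lower in ApoE -/- cells (median -0.44), and no marker of the other cell lists was called. The 10 smooth muscle markers had a median of 0.49. Their mean level was 9.26 to 9.45 in ApoE -/- arrays, within the wild-type range of 8.49 to 9.46. The part of these cells in the proteasome differences was not tested.

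The 3 stimuli were compared with the same 3 medium arrays, so their differences share the error of those arrays. LPS, the bacterial ligand of Toll-like receptor 4, called none of 43 proteasome genes in limma, while 9.05% of all genes were called. Of the 43, 9 had an unadjusted p under 0.05 in limma, as did 2071 of all 7550 genes tested. The median difference was 0.04, against -0.03 for all genes. Psmb9 had log2 signals of 6.94, 6.75 and 6.15 with LPS and 6.01, 6.02 and 5.83 in medium. All LPS arrays were above all medium arrays, and the difference of 0.66 (interval 0.16 to 1.16) missed the threshold (adjusted p = 0.0865 in limma). Without LPS replicate 10 it was 0.90 with an adjusted p of 0.0389, and the chaperone gene Psmd9 was then called as well (0.81). Its other probe sets differed by 0.06 and 0.41.

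None of the other inducible genes passed the test with LPS. Psmb8 read 7.65, 7.31 and 6.54 with LPS, a spread that held the 3 medium values, and its difference was 0.01 (interval -0.74 to 0.77). Psmb10, Psme1 and Psme2 had -0.07, -0.03 and -0.29, with adjusted p of 0.796, 0.91 and 0.409 in limma. Among the constitutive genes, Psmb5, Psmb6 and Psmb7 had -0.34, -0.30 and 0.02. The ubiquitin receptor Psmd4 had 0.56 (adjusted p = 0.0715) and Psme3 0.39 (adjusted p = 0.0914), with all LPS arrays above medium for each. The other probe sets of Psmd4 differed by 0.42 and -7.6e-05, the latter with LPS arrays on both sides of medium.

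With oxLDL, 1 of 43 genes was higher and none lower, against 2.81% of all genes called and 0.742% called higher. This was Psmc5, an ATPase of the 19S ring, with log2 signals of 8.95, 9.12 and 9.30 against 8.34, 8.27 and 8.27 in medium. The groups did not overlap, and the difference was 0.83 ± 0.174 (SE, adjusted p = 0.0271 in limma), 1.78-fold. It was called in all 6 alternatives that kept every array, and was lost without medium replicate 9, 10 or 11 or without oxLDL replicate 15 or 16. Of all 212 genes called, 56 were higher, against 92 of 227 after median centring. Psmb9 had 0.21, Psmb8 0.07, Psmb10 -0.01, Psme1 -0.04 and Psme2 -0.42, with adjusted p of 0.288 to 0.968 in limma. The sign of Psmb9 turned with the probe sets: their mean gave -0.26, and the second probe set, below the 40th percentile in 2 of the oxLDL arrays, gave -1.18. Psmb5, Psmb6, Psmb7 and Psme3 had -0.10, 0.16, -0.55 and 0.06. Psmf1, the inhibitor gene, read 6.51, 6.06 and 6.86 with oxLDL and 5.23, 5.00 and 6.37 in medium; the groups overlapped and the difference of 0.94 was not called (adjusted p = 0.117), while without medium replicate 11 it was 1.36 and called.

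With oxPAPC, both PA28 genes fell. Psme1 had log2 signals of 7.73, 7.63 and 7.83 with oxPAPC and 8.47, 8.85 and 8.48 in medium. Psme2 read 5.68, 5.88 and 6.36 with oxPAPC and 7.00, 7.17 and 6.84 in medium. The oxPAPC values of Psme1 were below those of every other array, and those of Psme2 were below all medium arrays and reached up to the lowest LPS and oxLDL values. Psme1 fell by 0.87 on the log2 scale (SE 0.141, adjusted p = 0.00267 in limma), 1.83-fold. Psme2 fell by 1.03 (SE 0.218, adjusted p = 0.00909), 2.04-fold. Both were called under all 12 alternatives, including without oxPAPC replicate 13, where the differences were -0.92 and -1.22.

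The inducible catalytic genes had negative differences with oxPAPC that did not pass the test. Psmb8 read 6.45, 6.49 and 7.23, and its difference was -0.43 (interval -1.18 to 0.33, adjusted p = 0.399 in limma). Psmb9 read 5.22, 6.01 and 5.70, with a difference of -0.31 (interval -0.81 to 0.19, adjusted p = 0.348). Psmb10 read 6.01, 5.97 and 5.79, with -0.13 (interval -0.45 to 0.18, adjusted p = 0.537). Each of the 3 overlapped medium, and without oxPAPC replicate 13 the differences were -0.68, -0.34 and -0.07, none of them called.

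In all, 6 of 43 genes were lower and 1 was higher with oxPAPC. Of all genes 21.3% were called, 12.9% lower and 8.34% higher, so that the share of proteasome genes called lower, 13.95%, was close to that background. Their median was -0.20, against -0.05 for all genes. The other genes called lower were Psmd12 (-0.62), Psmc4 (-0.59), Psmb6 (-0.54) and Psmd2, a scaffold of the cap's base (-0.41), with adjusted p of 0.0314 to 0.047 in limma. Psmd12 read 8.65, 8.55 and 9.33 with oxPAPC, so that replicates 11 and 12 lay just above the fresh wild-type range and replicate 13 just below medium. Psmb6 read 6.67, 6.74 and 7.34 in the same order of arrays. Psmb5 and Psmb7 were not called (-0.41 and -0.28), and Psme3 had 0.01 (interval -0.29 to 0.30).

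Psmd11 went the other way, with 9.41, 9.22 and 9.84 with oxPAPC against 8.57, 8.93 and 8.28 in medium, a rise of 0.90 (SE 0.215, adjusted p = 0.0147 in limma). Its other probe sets differed by 0.41 and -0.23, and with their mean the difference was 0.36 (adjusted p = 0.154). The count of calls rested on single arrays: leaving out medium replicate 9 or 10, or oxPAPC replicate 11 or 12, left 3 calls each, and leaving out medium replicate 11 left 2. Without oxPAPC replicate 13 there were 9 calls, the former 7 with Psmc2 (-0.60) and Psmd3 (-0.49) added.

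**Figure D3:**
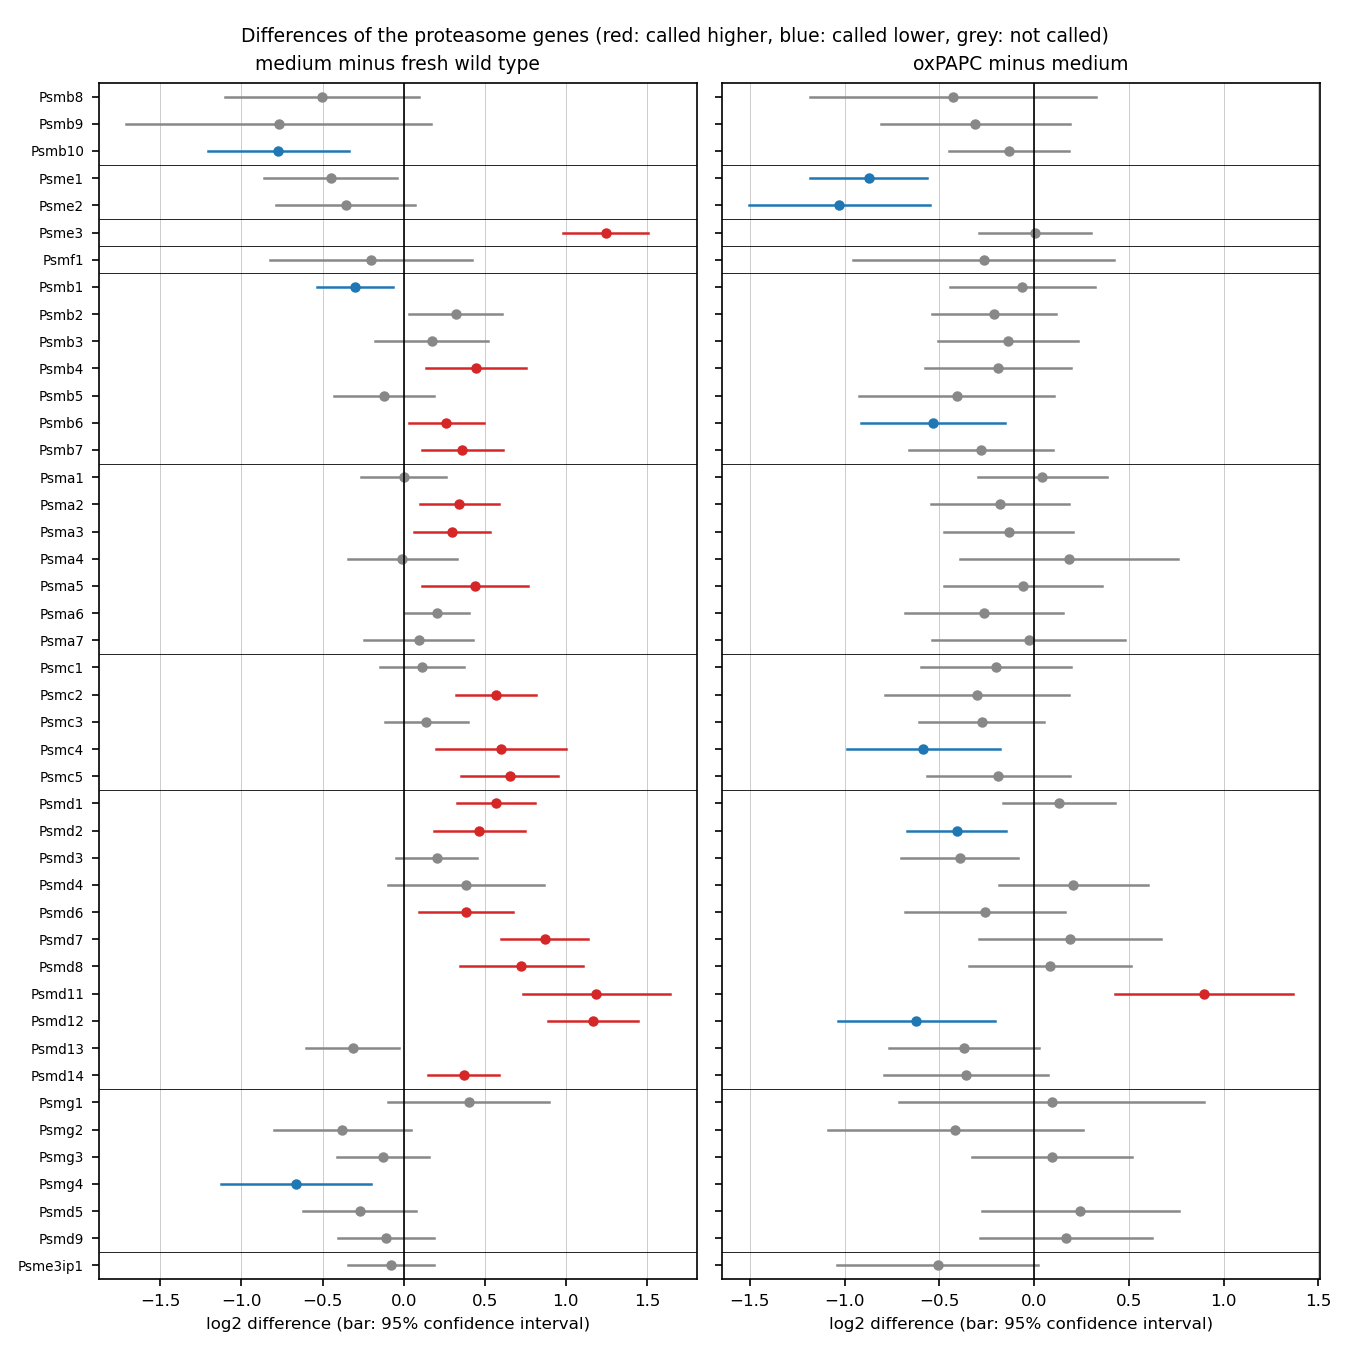
Log2 differences of the proteasome genes above the level filter, medium minus fresh wild type (left, 44 genes) and oxPAPC minus medium (right, 43 genes), with 95% confidence intervals; lines divide the roles in the order of the map of values. On the left 18 genes were called higher (red) and 3 lower (blue), on the right 1 and 6, with Psme1 and Psme2 at -0.87 and -1.03.

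Cell markers moved with oxPAPC as well. Of 12 endothelial markers 7 were lower (median -0.98), of 12 macrophage markers 8 were lower (median -0.78), and of 10 smooth muscle markers 7 were higher (median 1.06), with none in the other direction. Mean levels of the endothelial list were 7.71 to 8.14 with oxPAPC and 8.60 to 8.69 in medium, those of the macrophage list 5.86 to 5.90 and 6.47 to 6.69, and those of the smooth muscle list 8.57 to 8.997 and 7.35 to 8.35. Of 5 fibroblast markers 2 were lower with oxPAPC, as were 2 of 5 erythroid and platelet markers. With LPS, 3 of 12 endothelial, 4 of 12 macrophage and 2 of 5 fibroblast markers were lower. Of 10 smooth muscle markers 3 were higher with LPS, against 5.68% of all genes lower and 3.36% higher. With oxLDL, 1 of 12 endothelial, 1 of 12 macrophage, 2 of 5 fibroblast and 1 of 5 erythroid and platelet markers were lower. The share of all genes lower with oxLDL was 2.07%, and with oxPAPC 12.9%. The part of these shifts in the proteasome results was not tested.

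Between stimuli, the same oxPAPC arrays enter both comparisons with oxPAPC. LPS against oxPAPC gave 3 higher and 1 lower of 43 genes, against 8.65% of all genes called, 4.69% higher and 3.96% lower. Psme1 was higher with LPS by 0.84 (SE 0.141, adjusted p = 0.00447 in limma), and Psmb9 by 0.97 (SE 0.229, adjusted p = 0.0228). The LPS values of Psmb9, 6.15 to 6.94, were all above the oxPAPC values, 5.22 to 6.01. Its second probe set read 4.29 to 4.38 with oxPAPC, below the 40th percentile, and 5.02 to 6.28 with LPS. Psma6, an alpha-ring gene, was higher by 0.69 (adjusted p = 0.0448) and Psmd11 lower, with a difference of -0.76 (adjusted p = 0.0488) against -0.16 and -0.06 on its other probe sets. Psme1 was called in all 12 alternatives, Psmb9 in 8, Psma6 in 6 and Psmd11 in 2. The call of Psmb9 was lost without LPS replicate 3, LPS replicate 4 or oxPAPC replicate 11 and in the fit of only the groups compared, with adjusted p up to 0.0954 in limma. Psme2 had 0.74 (adjusted p = 0.0576), Psmb8 0.44 and Psmb10 0.06. Psmb5, Psmb6, Psmb7 and Psme3 had 0.07, 0.24, 0.29 and 0.38. Without oxPAPC replicate 13 there were 12 calls in this comparison, all higher, among them Psme2 (0.93) and Psmc5 (0.76). Without LPS replicate 10 there were 5 calls, all higher, and Psmd11 was not among them. Psme2 (0.91, adjusted p = 0.0306 in limma) and Psmd9 (0.64, adjusted p = 0.0397) were then called. Leaving out LPS replicate 3, LPS replicate 4 or oxPAPC replicate 11 left 1 call, and leaving out oxPAPC replicate 12 left 2.

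oxLDL against oxPAPC gave 9 higher and none lower of 43, against 12.4% of all genes called and 7.80% called higher. The median difference was 0.23, against 0.04 for all genes. Psmc5 read 8.95 to 9.30 with oxLDL and 7.83 to 8.46 with oxPAPC, a difference of 1.02 (SE 0.174, adjusted p = 0.00527 in limma). Psmd2 had 0.79 (adjusted p = 0.00305) and Psme1 0.83 (adjusted p = 0.00521), and these 3 genes were called under all alternatives. The ATPase genes Psmc1 and Psmc3 were higher by 0.81 and 0.62, Psmb6 by 0.69, and the cap genes Psmd13 and Psmd3 by 0.63 and 0.47. Psmf1 had the largest difference, 1.21 (SE 0.316, adjusted p = 0.0285), while its other 3 probe sets, above the 40th percentile in at most 1 array, differed by 0.27 to 0.50. Of the inducible genes, Psmb8, Psmb9, Psmb10 and Psme2 had 0.49, 0.52, 0.12 and 0.61, none of them called with all arrays, and Psmb5, Psmb7 and Psme3 had 0.31, -0.27 and 0.05. Without oxPAPC replicate 13 there were 13 calls, and Psme2 was then among them (0.80, adjusted p = 0.0279 in limma). Of the 12 endothelial markers 6 were higher with oxLDL than with oxPAPC and none lower (median 0.77), while with LPS against oxPAPC 4 were higher and 1 lower; their part in these calls was not tested. Leaving out oxLDL replicate 14 left 4 calls, and leaving out oxLDL replicate 16, oxPAPC replicate 11 or oxPAPC replicate 12 left 3.

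LPS against oxLDL called none of 43 genes in limma, against 5.07% of all genes. Of the 43, 11 had an unadjusted p under 0.05 in limma, as did 1625 of all 7550 genes tested. Psmb9, Psmb8, Psmb10, Psme1 and Psme2 had 0.45, -0.06, -0.05, 0.01 and 0.13. Psmb5, Psmb6, Psmb7 and Psme3 had -0.24, -0.45, 0.56 and 0.33. Psmd2 had the smallest adjusted p, 0.0562, at -0.44.

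**Figure D4:**
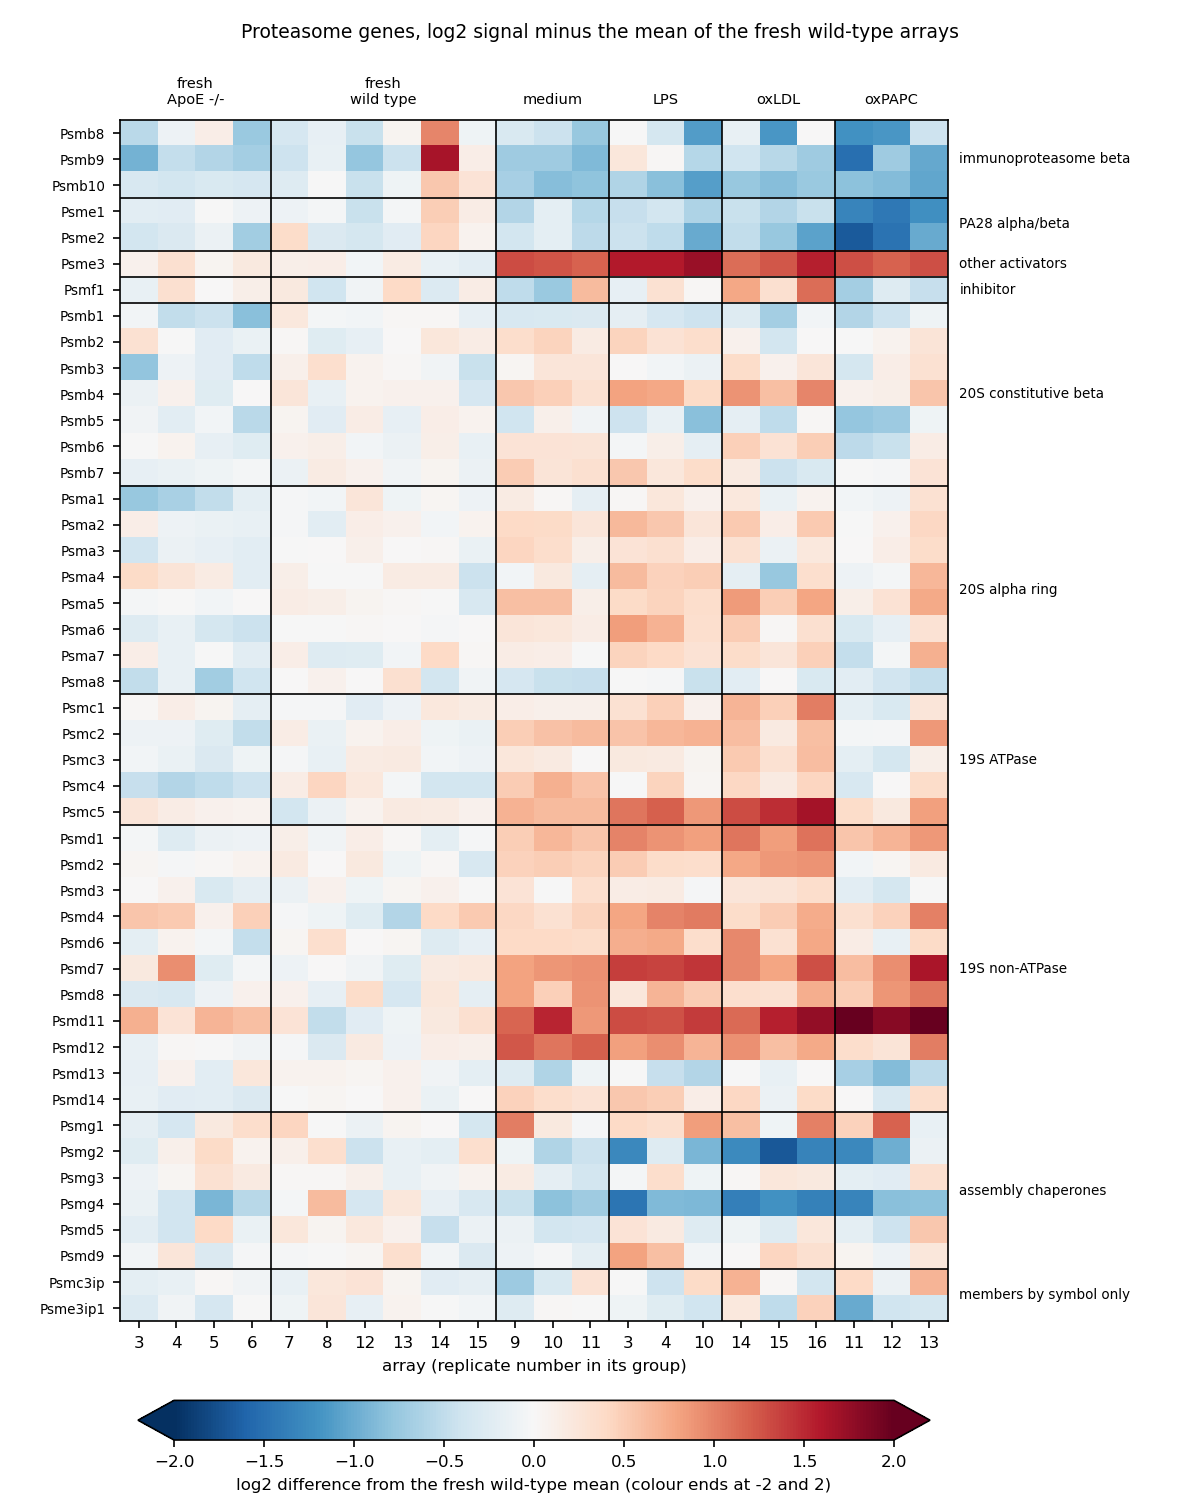
Log2 signal of each of the 46 genes in each of the 22 arrays, minus the gene's mean in fresh wild-type arrays (red higher, blue lower), with the genes ordered by role and the arrays by group. Psme3, Psmd7, Psmd11 and Psmd12 are red in all incubated groups, Psmb10 is blue in them, and Psme1 and Psme2 are lowest with oxPAPC.

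Across the 6 groups, the mean levels of the inducible and constitutive genes lay furthest apart with oxPAPC. For each array, the mean deviation from the fresh wild-type mean was taken over the 5 inducible genes and over the 30 constitutive core and cap genes; these means are a description and carry no test. In medium the inducible mean was -0.57 ± 0.124 (SD, n = 3) and the constitutive mean 0.35 ± 0.035. With LPS they were -0.51 and 0.42, and with oxLDL -0.61 and 0.44, with ranges that overlapped those of medium. With oxPAPC they were -1.12 ± 0.182 and 0.20 ± 0.284. In fresh ApoE -/- cells they were -0.36 and -0.09. Of the 5 inducible genes, each by the probe set used, Psme1 and Psme2 differed most between oxPAPC and medium (-0.87 and -1.03). Psmb8, Psmb9 and Psmb10 differed by -0.43, -0.31 and -0.13 and were not called. That order depends on the probe set, since the second probe set of Psmb9 differed by -1.23. With the fresh wild-type mean taken without replicate 14, a choice made after seeing the data, the inducible means were -0.20 in ApoE -/- cells, -0.41 in medium, -0.35 with LPS, -0.45 with oxLDL and -0.96 with oxPAPC.

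The inducible mean minus the constitutive mean was -0.92 in medium, with a range of -1.02 to -0.85, and -1.32 with oxPAPC, with a range of -1.46 to -1.19. Fresh wild-type arrays ranged from -0.53 to 0.76 and fresh ApoE -/- arrays from -0.43 to -0.05, all above every incubated array. The LPS arrays, at -0.72, -0.88 and -1.19, overlapped both medium and oxPAPC. In oxPAPC replicate 13 the constitutive mean of 0.52 was above those of medium, the inducible mean was -0.94, and their difference was the lowest of all arrays.

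**Figure D5:**
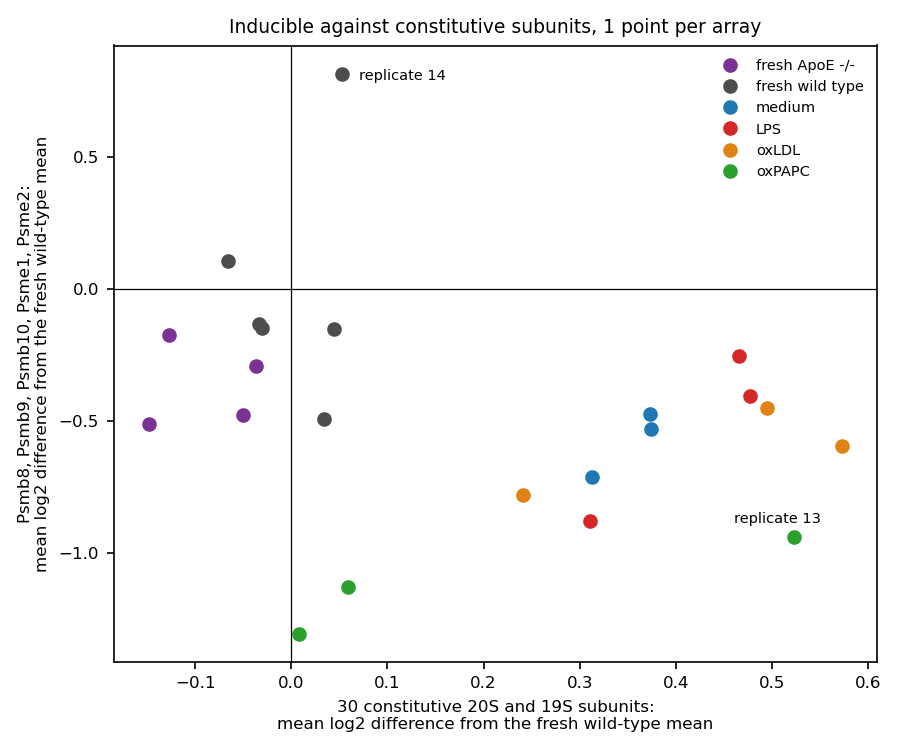
Mean log2 deviation from the fresh wild-type mean of the 5 inducible genes (vertical) against that of the 30 constitutive core and cap genes (horizontal), 1 point per array. The vertical value minus the horizontal one is lower in every incubated array than in every fresh one, while either mean alone overlaps between fresh and incubated arrays; oxPAPC arrays have the lowest inducible means (-1.31 to -0.94), and fresh wild-type replicate 14 and oxPAPC replicate 13 are labelled.

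Genes that act with the proteasome were read from 4 further lists. In medium against fresh wild-type cells, 6 of 11 proteasome partners outside the symbol rule were higher and 2 lower, where 24.3% of all genes were higher and 34.4% lower. Zfand2a, a stress-induced protein of the 19S cap, rose by 3.04, and the cap-bound proteins Usp14, a deubiquitinase, and Txnl1, a thioredoxin, by 0.87 and 0.79 (adjusted p of 4.3e-07, 0.000283 and 8.9e-05 in limma). Ubqln2, a shuttle for ubiquitin-tagged proteins, and Sem1, a small cap subunit, were lower, by differences of -0.40 and -0.28. Of 7 genes of the NRF1 pathway, 5 were higher and 1 was lower: the small Maf partners Maff, Mafk and Mafg rose by 2.65, 1.42 and 1.36, and Ngly1, the glycanase that activates NRF1, fell by 0.52. With oxPAPC, 1 of 11 partners (Txnl1, 0.44) and 1 of 7 NRF1 pathway genes (Mafk, 0.62) were higher and none lower. Of all genes, 8.34% were higher and 12.9% lower with oxPAPC. With LPS Mafg was lower (-0.62), where 5.68% of all genes were lower. With oxLDL no gene of either list was called, where 2.81% of all genes were called.

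Of 10 interferon and NF-kB factors known to act on the inducible genes, 6 were lower with oxPAPC than in medium and none higher, against 12.9% of all genes lower and 8.34% higher. Stat2, a transcription factor of type I interferon signalling, fell by 1.69 (adjusted p = 0.00227 in limma). The kinase Jak2 fell by 0.93 and the interferon gamma receptor chain Ifngr1 by 0.84. In medium against fresh wild-type cells, 4 of the 10 were higher and 2 lower, with Ifngr1 at -1.36 and Jak1 and Jak2 at 1.27 and 1.34. Of all genes, 24.3% were higher and 34.4% lower in that comparison. With LPS none of the 10 was called in limma, Irf1 having the smallest p (0.73, adjusted p = 0.0678). With oxLDL Jak1 was lower (-0.82), where 2.07% of all genes were lower. In LPS against oxPAPC, Stat2, Irf1 and Ifngr1 were higher with LPS, by 1.503, 1.06 and 0.85, where 4.69% of all genes were higher.

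Of 7 class I peptide-loading genes, Tapbpl and Tapbp, both of which help to load peptides on class I molecules, were lower with oxPAPC (-0.61 and -0.48, adjusted p of 0.0428 and 0.0462 in limma), and both were higher with oxLDL than with oxPAPC (0.97 and 0.53). Of all genes, 12.9% were lower with oxPAPC than in medium, and 7.80% were higher with oxLDL than with oxPAPC. Tapbpl was also lower in medium than in fresh wild-type cells (-0.71), where 34.4% of all genes were lower. With LPS and with oxLDL against medium, and in fresh ApoE -/- cells, none of the 7 was called; the smallest p belonged to H2-T23 (-0.53, adjusted p = 0.109), Calr (0.39, adjusted p = 0.223) and H2-K1 (-0.50, adjusted p = 0.144).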

How the data were processed

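Each of the 22 arrays was a 1-colour Affymetrix array of amplified, biotin-labelled RNA with a RIN of at least 7.0. The authors deposited log2 values made with RMA in affy, per the submitters' processing notes; versions, the genome build and whether all arrays were normalised together are not given in the sources used here. RMA's quantile step can hide a shift shared by most transcripts. Of 22626 probe sets, 18003 had a single symbol in the platform annotation, 287 several and 4336 none, and those with 1 symbol gave 11807 genes, each read by its brightest probe set on average.

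Genes were tested if above the 40th percentile of their own array in no fewer arrays than the smallest compared group has. limma 3.58.1 in R 4.3.3 (lmFit and eBayes, two-sided) was run for 8 comparisons: ApoE -/- against wild type on the 10 fresh arrays, each stimulus against medium and against the others on the 12 incubated arrays, and medium against fresh wild type on 9 arrays. P-values were Benjamini-Hochberg adjusted over all genes tested, with a threshold of 0.05. The fit was tested on simulated data. Psmb8, Psmb9, Psmb10, Psme1, Psme2, Psmb5, Psmb6, Psmb7 and Psme3 were named in every comparison, then the 6 largest called rises and falls, or with no call the gene with the smallest p; other lists gave up to 3 called genes per direction by p. Other genes of the group were named where a statement rested on them. The members and lists were chosen with earlier results of these data known. Promoter sequences came from RefSeq. Alternatives were cyclic loess, median centring, no level filter, the mean of all probe sets, limma's trend and robust options, a fit of only the groups compared, and leaving out each array.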

Additional observations from a re-analysis of the deposited data

Results flagged for a closer look

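In 5 of 92 sets of 4 to 6 fresh arrays, the highest or lowest array stood far from the others by Dixon's criterion, which chance meets in about 5% of sets. Psmb8 in fresh wild-type replicate 14 had a log2 signal of 8.63, against 7.20 to 7.71 in the other 5 arrays. Psmb9 in the same array had 8.37, against 5.95 to 6.85. Psma4 and Psma5 in fresh wild-type replicate 15 had 7.81 and 8.42, against 8.22 to 8.40 and 8.73 to 8.89 in the others. Psma2 in fresh ApoE -/- replicate 3 had 8.72, against 8.44 to 8.48.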

How the results depend on the processing

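Over 103 pairs of a gene and a comparison, 1315 alternative values were computed: 1130 kept their direction and side of the threshold, 125 lost and 16 gained a call, 44 without a call moved, and none of those called reversed. The number of proteasome genes called changed most. For oxPAPC against medium it was 7, with 4 after median centring and 3 in the fit of only the groups compared, and 2 to 9 with 1 array left out. For LPS against medium it was 0, with 1 after cyclic loess and 2 in the fit of only the groups compared, and 0 to 2 with 1 array left out. For oxLDL against medium it was 1, with 2 in the fit of only the groups compared and 0 to 2 with 1 array left out. For LPS against oxLDL it was 0, with 1 without the level filter, 1 with the mean of all probe sets, 1 with limma's trend and robust options, and 0 to 1 with 1 array left out. For LPS against oxPAPC it was 4, with 2 without the level filter, 1 in the fit of only the groups compared and 1 to 12 with 1 array left out. For oxLDL against oxPAPC it was 9, with 4 in the fit of only the groups compared and 3 to 13 with 1 array left out. For medium against fresh wild type it was 21, with 13 to 23 with 1 array left out. The mean of all probe sets gave 27 in that comparison, 21 higher and 6 lower. For fresh ApoE -/- against wild type it was 0 in every alternative. Fits of only the groups compared, or with an array left out, held fewer arrays; other causes were not tested. No paired analysis was possible because the groups compared share at most 1 replicate number, and the labels do not tie the numbers to animals. The level filter bounds what could be seen of dim genes such as Psma8 and Psmc3ip, neither of which entered a main fit. Leaving out an array could lower the number of arrays the filter asked for, so Psmc3ip could enter some of those fits.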
